A study of Drosophila melanogaster with 15 samples.

Results

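Some fly genes lie wholly inside another gene that runs the other way. In the authors' annotation of transcription units, such members were taken by rule: a unit whose start and end both fall inside a single unit of the opposite strand, and which holds at least 1 gene symbol that is not CR plus digits, has no colon and does not start with mir-. The rule found 1089 units among 15991 units in all and among 12971 units that pass the symbol test (8.40%). They lie in 699 hosts, a host being the opposite-strand unit around them. Units that pass the symbol test are called coding units here. Members were chosen from positions and names in the table, so that they lie inside a host is the rule and not a finding.

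The annotation belongs to an mNET-seq experiment, in which the RNA in elongating polymerase is sequenced, on stage 15 Drosophila melanogaster embryos. The samples were embryos of mothers depleted of mof by RNA interference (UAS-mof RNAi, labelled MOF) or given a control RNA interference (Control), sorted by sex. Females gave 4 Control and 4 MOF libraries, and males gave 3 Control and 4 MOF libraries, 15 in all, with male Control replicate 1 not analysed here. A preparation pooled 6000 embryos, and the sources used here name neither the driver line nor the embryos' genotypes. The table holds no count or coverage of any library, so the depth is unknown and the 4 groups carry no values in what follows.

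A nested gene and its host are transcribed toward each other over the same DNA, so RNA polymerase of both strands can pass through the nested span. In animals nested genes often lie in long introns and can be expressed in other tissues or at other times than the host. Nascent RNA assays keep the strand of each read and can tell the pair apart, whereas a signal that sums both strands cannot. In male flies the single X is transcribed at a raised level by the MSL complex, which contains the acetyltransferase MOF. The table holds unit bounds and no exons, so it was not determined here which nested units lie in introns.

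The symbol test was set against the gene types of a RefSeq gene table, which matched 1134 of the 1135 gene symbols in the nested units. A protein-coding gene was present in 1079 nested units. The other 10 were the lncRNA genes yar, sphinx and iab-4 (joined with mir-iab-4), the antisense RNA genes ASTR and CG43885, the pseudogenes alpha-Est4aPsi and Or98P, 2 units of alternative mod(mdg4) segments, and spheroide, which had no match. Most nested units held 1 gene (1054) and 35 held several. Hosts were less simple: 595 nested units lay in hosts of 1 gene and 494 in joint hosts of several same-strand genes. Even so, 1083 nested units lay inside the span of at least 1 single gene of the host. The 6 that did not were CG13377, ppk8 and CG9914 on X and, on 3R, P5CDh2 and the 2 units of mod(mdg4) segments.

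On X, 226 of 2020 coding units were nested (11.2%), against 863 of 10927 on the autosomes (7.90%). Among the large autosomal arms the share was 6.62% on 3R (214 of 3234), 7.96% on 2L (191 of 2398), 8.62% on 3L (221 of 2564) and 8.90% on 2R (236 of 2651). X thus lay above each of these 4 arms. Chromosome 4 held a single member in 80 coding units, sphinx inside fuss, and that member is an lncRNA gene in RefSeq. None of the 24 coding units of Y was nested. Units of an annotation are linked and are not replicates, so shares and medians are set side by side without a test.

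**Figure D1:**
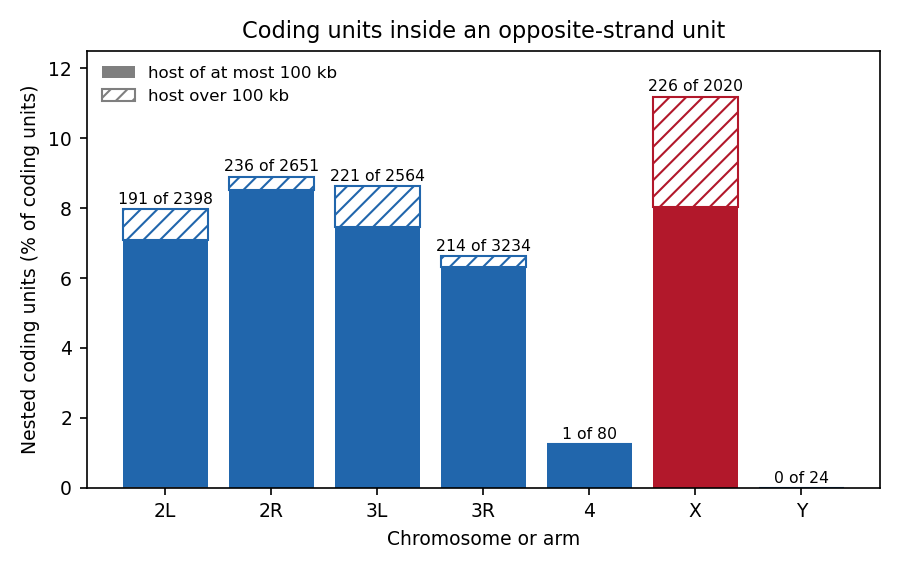
Nested coding units as a percentage of all coding units of each chromosome or arm, with the counts above the bars. Filled parts stand for hosts of at most 100 kb and hatched parts for longer hosts; X reaches 11.2% in all and 8.02% with hosts of at most 100 kb, where 2R has 8.53%.

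Most of the difference between X and the autosomes lay in the longest hosts. Hosts over 100 kb held 64 of the 226 nested units on X (28.3%) and 71 of the 863 on the autosomes (8.23%). With hosts of at most 100 kb the shares were 8.02% of coding units on X and 7.25% on the autosomes, and X then fell between 3L (7.45%) and 2R (8.53%). Per length of unit, units of at most 100 kb held 1.07 nested coding units per 100 kb on X and 1.18 on the autosomes. Units over 100 kb held 1.66 per 100 kb on X, against 1.36 on 2L, 0.899 on 3L, 0.514 on 2R and 0.216 on 3R. Of the 64 members in these long X hosts, 63 lay in joint units, as did 66 of the 71 on the autosomes. When the longest single gene around each member was measured in place of the unit, 64 members on X and 71 on the autosomes again had a host over 100 kb.

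The share of units that are hosts climbed with unit length on X and on the autosomes alike. Of units between 5 and 10 kb, 5.86% on X and 9.29% on the autosomes hosted a nested coding unit. Between 10 and 20 kb the shares were 15.8% and 13.7%, between 20 and 50 kb 22.9% and 25.3%, and between 50 and 100 kb 37.3% (19 of 51) and 47.4% (82 of 173). Over 100 kb they were 66.7% (16 of 24) and 49.2% (30 of 61). X stood higher in the class from 10 to 20 kb and in the longest class, and lower in the other classes.

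**Figure D2:**
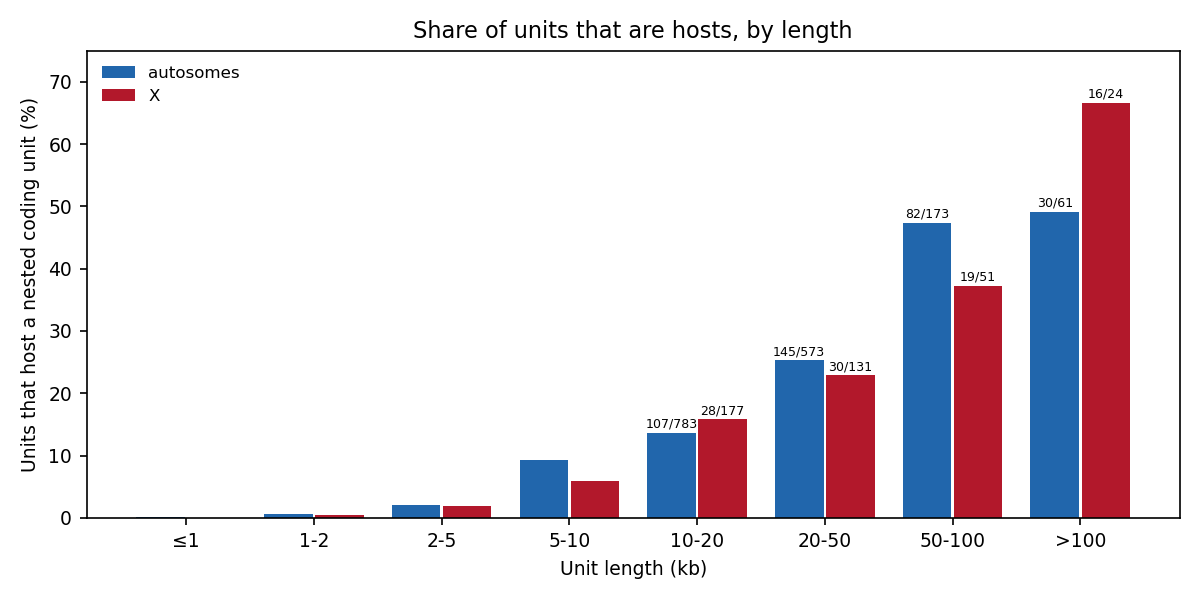
Percentage of all units that host at least 1 nested coding unit, by unit length in kb, for the autosomes and X, with hosts over units printed for classes over 10 kb. The share climbs with length to 66.7% on X and 49.2% on the autosomes in units over 100 kb.

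Hosts usually held a single member. There was 1 nested coding unit in 506 of the 699 hosts, while 193 hosts held 2 or more and together 583 members (53.5%). The mean was 1.84 per host on X (123 hosts) and 1.50 on the autosomes (576 hosts). The 5 fullest hosts held 46 nested units on X (20.4% of its members) and 41 on the autosomes (4.75%). Without the members of these 10 hosts, but over all 2020 and 10927 coding units, the nested share was 8.91% on X and 7.52% on the autosomes. The 8.90% of 2R was close to this X value but not a like measure, as none of the 10 hosts lay on 2R.

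The fullest host was Flo2, which encodes flotillin 2, a scaffold protein of membrane domains. Its unit spans X from 14839376 to 14933946 in dm6 on the plus strand (94571 bp, 1 gene). Inside it lay 14 nested units that cover 56.3% of its length, from CG12539, 3241 bp after the host's start, to CG32591, whose midpoint lay at 93.8% of the host. Percentages of host length below are likewise those of a member's midpoint, counted from the host's start. Among the 14 was Eo, the gene of ecdysone oxidase (14916756 to 14918800, 2045 bp). The longest was CG9514 (10940 bp).

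The kirre unit (X, 2740384 to 3134532, plus strand, 394149 bp, 13 genes) was the longest host and held 9 members. Among them was rst (2950399 to 2973834, 23436 bp), so that 2 related immunoglobulin adhesion genes of muscle and eye development lay one inside the other on opposite strands. The eye pigment transporter gene w lay there too (2790599 to 2796466, 5868 bp), at 13.5% of the host's length. All 9 lay inside the span of the gene kirre itself.

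The unit of CG32816 (X, 316576 to 470726, minus strand, 154151 bp), joined with CR44753, Pgcl and Cyp4g1, held 8 members. These include the achaete-scute genes, which encode proneural transcription factors of the basic helix-loop-helix class. In the host's direction ase came first, at 5.69% of its length, followed by l(1)sc at 39.2%, sc at 48.0% and ac at 65.0%. Then followed the lncRNA gene yar at 68.8% and the pigmentation gene y at 72.6%. All of them lay inside the span of the gene CG32816.

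In some hosts on X the gene around the members was a non-coding gene. The unit that begins with CR44357 (239347 bp) held 8 members, among them brk, a repressor of targets of the growth factor Dpp (7307939 to 7311132, 3194 bp). CR44357 surrounds all 8 of them, and the gene CG1677 surrounds 7 as well. In the Myc unit (149629 bp) the only gene around its 7 members was CR44999, and not Myc. In the CR32773 unit (223710 bp) it was likewise CR32773 for all 7, among them bi. Across the nested units that lie inside a single host gene, no surrounding gene was protein-coding for 28 on X (12.6%) and 41 on the autosomes (4.77%). In hosts over 100 kb these counts were 16 on X and 0 on the autosomes.

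On the autosomes the Pde1c unit on 2L held most members, 10, in 114417 bp (11814156 to 11928572, minus strand). Pde1c encodes a cyclic nucleotide phosphodiesterase. The 10 units covered 7.68% of the host and lay close together between 65.5% and 82.4% of its length. They include the maltase genes Mal-B2 and Mal-B1 and the seminal fluid protein genes Sfp33A3, Sfp33A2 and Sfp33A4.

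The Usp12-46 unit on 3R (43130 bp), named for a deubiquitinase gene, held 9 members known only by CG numbers, between 21.0% and 47.7% of its length. The B4 unit on 2L (48705 bp) held 8, from CG16853 to CG33640. The ND-15 unit on 2L (42941 bp, 7 genes), named for a subunit gene of respiratory complex I, held 7 that covered 68.8% of it. The RYa-R unit on 3R (60956 bp), named for a neuropeptide receptor gene, held 7, from CG6296 to CG6271. The sbb unit on 2R also held 7, but in a longer host (79099 bp).

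**Figure D3:**
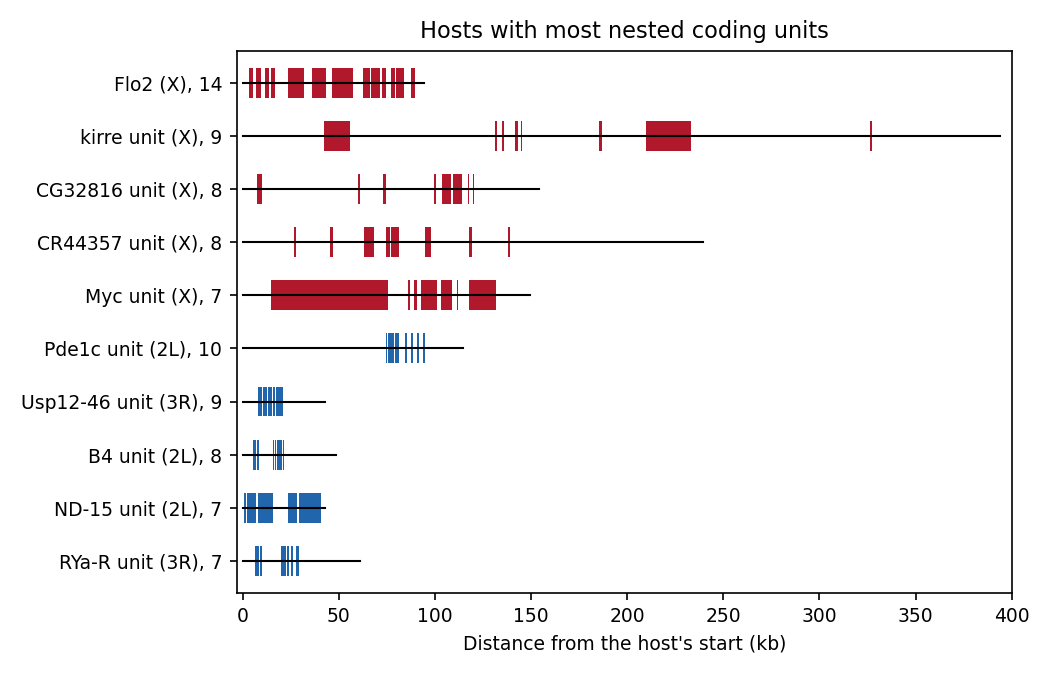
The 5 hosts with most nested coding units on X (red) and on the autosomes (blue), each drawn as a line to scale in kb from the host's start, with nested units as blocks (at least 0.6 kb wide for visibility) and their number after the name. Members fill 56.3% of Flo2 and 7.68% of the Pde1c unit.

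Several nested pairs are known from genetics. The pair of Pcp and ade3 (listed as Gart in RefSeq) was named by rule. Pcp, a pupal cuticle protein gene on 2L (7021682 to 7022470, 789 bp), lay 1428 bp after the start of ade3 (9276 bp), which encodes an enzyme of purine synthesis. The following pairs were chosen after their values were seen. The joint unit of Adh, the gene of alcohol dehydrogenase, and Adhr on 2L (14615552 to 14618902, 3351 bp) lay at 80.0% of the length of the osp unit (90145 bp). On 3L, sina, a ubiquitin ligase gene of photoreceptor fate, took up 49.7% of Rh4, an opsin gene (9991 bp), beside its relative sinah and CG13029.

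Also chosen after their values were seen were 2 groups of related genes in 1 host. The rhomboid protease genes rho and ru both lay in the Ptp61F unit on 3L (132765 bp), at 6.69% and 72.5% of its length. On X, the chorion genes Cp38, Cp36, Cp7Fc, Cp7Fb and Cp7Fa, which encode eggshell proteins, lay in a row inside the CG33223 unit (8465690 to 8483885, 18196 bp) between 7.21% and 65.4% of the host. All 5 lay inside the span of the gene CG33223.

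Nested units were short, also beside other coding units. Their median length was 1581 bp on X, where coding units that are not nested had 2911.5 bp. On the autosomes the medians were 1394 bp and 2316.5 bp. A unit inside another is limited by the host's length, so a shorter length is in part set by the rule. The quartiles of nested units were 953.5 and 3362.75 bp on X, against 829 and 2190 bp on the autosomes. The median share of the host taken by a member was 5.32% on X and 6.47% on the autosomes.

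Some members were long all the same. On X the longest was br, a transcription factor gene of the ecdysone response (1575132 to 1664869, 89738 bp), which took up 61.6% of the Mur2B unit. It was followed by bi, a T-box gene of wing and optic lobe patterning (72792 bp), the joint unit of CG12535 and CG14269 (61000 bp), CG43902 (36904 bp) and Nna1 (25544 bp, in Nadsyn). On the autosomes the longest were the joint unit of Ank2, an ankyrin gene, and CG44195 (63007 bp), 2mit with CR45109 (33737 bp, in timeout), CG42741 (31866 bp, in the unit that holds twi), CG34109 (31649 bp) and dsx-c73A (29164 bp). In all, 52 members were longer than 50% of their host.

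Of the nested units, 28 held several protein-coding genes. After Ank2 with CG44195 and CG12535 with CG14269, the longest were CG14304 with CG7695 (28527 bp, in qin, a piRNA pathway gene), CG43394 with CG31606 (13029 bp, in PAPLA1), CG11638 with CG32814 (12720 bp, in su(w[a])) and the 4 genes inaF-A to inaF-D (9228 bp, 74.6% of CG15221). Then came Teh2 with Teh3 and VhaM9.7-c (9044 bp), CG45065 with CG45064 in Flo2 (7217 bp), the kinase genes KP78a and KP78b (6838 bp) in pros, a neuroblast transcription factor gene (79148 bp), and CG33934 with Indy-2 (5960 bp, in CG17193).

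The shortest members were CG43182 (251 bp), ng4 (267 bp), CG32551 (393 bp), CG15461 (409 bp) and CG43841 (410 bp) on X. On the autosomes they were Tango8 (177 bp), CG34211 (198 bp), CG42649 (219 bp), CG43351 (242 bp) and Sfp33A4 (244 bp). ng4 lay with ng2, ng3, Pig1 and CG14265 in a stretch between 35.8% and 43.3% of dnc, the cAMP phosphodiesterase gene of learning (unit of 167328 bp). These 5 small units all lay inside the span of the gene dnc.

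Hosts were long. A host is at least as long as its member, and long units are hosts more often, so this is in part set by the rule. Coding units that are not nested were also longer on X (median 2911.5 bp) than on the autosomes (2316.5 bp). Counted once each, the median length of hosts was 23864 bp on X, against 16593 bp on the autosomes. Counted once for every member, the medians were 43614 bp and 26599 bp, since long hosts hold more members. By arm, the latter value ran from 19488 bp on 2R and 23620 bp on 3L to 24777 bp on 3R and 37765 bp on 2L, so X lay above each large arm. Counted once each, however, hosts on 2L had a median of 24753.5 bp, above X. Without the 5 fullest hosts of X and of the autosomes, the medians over members were 26367 bp and 23621 bp. After the kirre unit, the longest hosts on X were the units of Ten-a (291517 bp, 6 members), CR44357, CR32773 and rg (169106 bp, 1 member). On the autosomes they were pum (171340 bp, 1 member), heph (168534 bp, 1), dpr6 (164710 bp, 5), mbl (162828 bp, 3) and sick (162060 bp, 4).

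At the short end, most hosts had CR symbols, the prefix used in fly annotation for non-protein-coding genes. The 5 shortest on the autosomes were CR44130 (569 bp), CR44304 (722 bp), CR42738 (809 bp), CR45343 (904 bp) and CR44095 (910 bp). On X they were CR45629 (1677 bp), CR43864 (1706 bp), Rcp (2032 bp), CR18275 (2453 bp) and CG32576 (2581 bp). In all, 37 of the 699 hosts held no coding symbol.

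**Figure D4:**
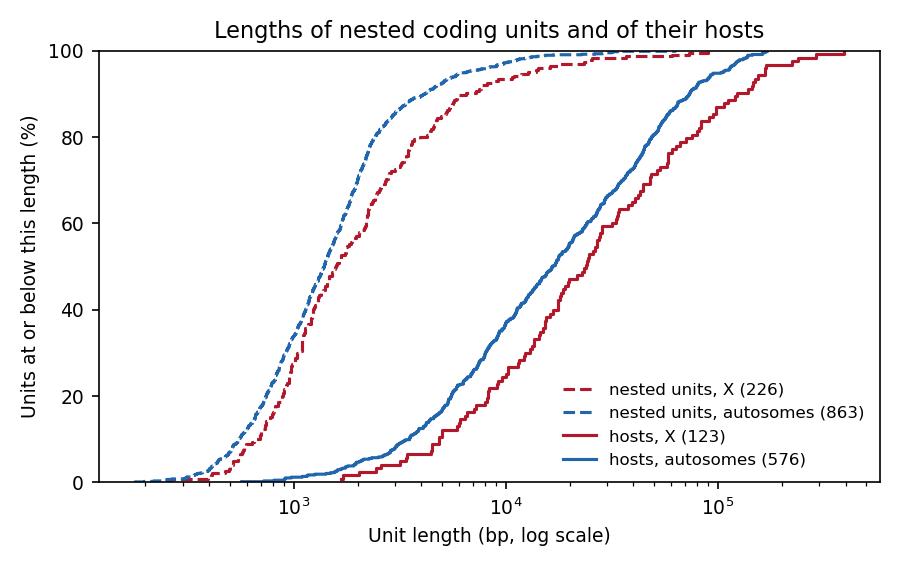
Cumulative share of units (in percent) by unit length in bp on a log scale, for nested coding units (dashed) and their hosts, each host counted once (solid), on X (red) and the autosomes (blue). Both X lines lie to the right over most of the range, with median host lengths of 23864 bp (X) and 16593 bp (autosomes).

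Members lay somewhat nearer the host's start than its end. The place of a member was taken as the distance from the host's start to the nested unit, as a percentage of the host length that the nested unit leaves free, so that an even spread would give 10% in each of 10 equal parts. Of 1087 members with free length, 616 (56.7%) lay in the first 50% of it and the median was 43.6%. The last of the 10 parts held 60 (5.52%) and the first 119 (10.9%). By arm the share in the first 50% was 55.8% on 2L, 55.7% on 2R, 54.3% on 3L and 59.8% on 3R, and 57.5% on X.

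X and the autosomes each had a median of 43.6% in this measure. In bases the distances differed with host length. The end of the nested unit that faces the host's start lay at a median of 12658.5 bp from it on X, against 7363 bp on the autosomes. The start of the member and that of the host were a median of 16597.5 bp apart on X, against 9683 bp on the autosomes. The ends were alike in the number of members close to them: 64 members (5.89%) ended within 500 bp of the host's start, and 65 (5.98%) began within 500 bp of its end. Since a member runs against its host, the start-to-start distance also contains the member's own length.

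**Figure D5:**
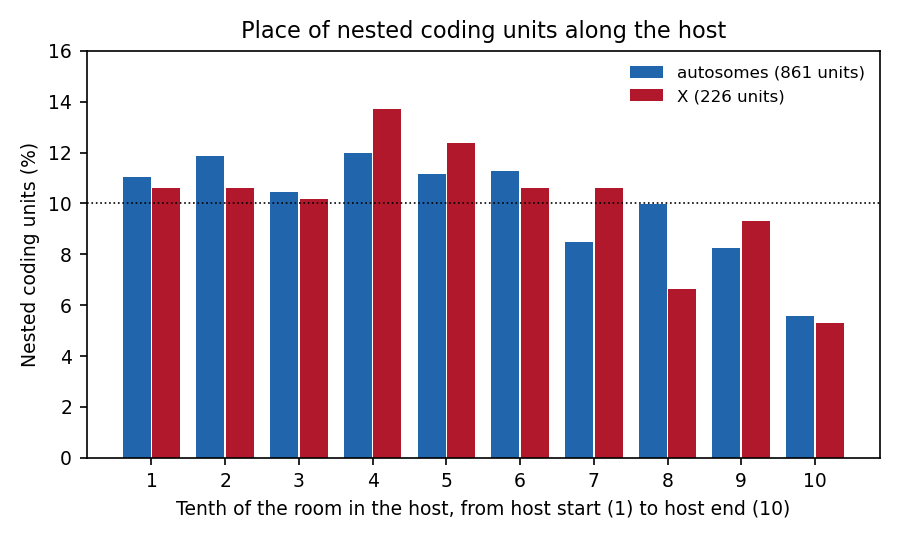
Percentage of nested coding units in each of 10 equal parts of the host length left free by the nested unit, from the host's start (1) to its end (10), for the autosomes and X; the dotted line marks 10%. The last part holds 5.57% on the autosomes and 5.31% on X.

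The members that began nearest their host's start lay mostly in short hosts with CR symbols. They were Peritrophin-15b (511 bp, start to start), CG34211 (543 bp), the cuticle gene Cpr67Fb (570 bp), CG43447 (632 bp) and Cys, a cystatin gene (682 bp). This distance contains the member's length and cannot exceed that of the host. Short members and short hosts thus come first in part by the measure. Those that began nearest the host's end were CG14610, CG43190 and Ucp4B (0 bp), COX5BL (5 bp) and CG9914 (20 bp). Of these, CG43190 and Ucp4B had exactly the bounds of a unit on the other strand, CR44304 and CR43465. They are thus nested and hosts at once. No member hosted another member.

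At the edge of the rule, dUTPase, Lfg, CG5112 and CG14610 shared 1 bound with the host. Just outside it, 37 coding units lay inside an opposite-strand unit over at least 90% of their length, led by Spt-I (99.9%), a subunit gene of serine palmitoyltransferase, and CG11077 (99.7%). The neuronal RNA-binding protein gene elav (98.6%) was among them. In contrast, 7770 coding units had no base in common with a unit of the other strand.

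Nested genes had few annotated transcripts, and most had no name beyond a CG number. A single transcript was annotated for 61.9% of members on X and 70.6% on the autosomes, against 37.4% and 45.7% of other coding units. For hosts the figures were 8.13% and 16.7%. The mean number was 1.71 per member on X and 1.55 on the autosomes, and 5.35 and 4.75 per host. All coding symbols were CG numbers in 68.1% of members on X and 65.9% on the autosomes, against 48.2% and 46.1% of other coding units, and in 29.3% and 29.5% of hosts. Members were also shorter than other coding units, and the part of length in these values was not tested. Transcripts and symbols were counted over all genes of a unit, so joint hosts sum those of several genes. Joint hosts held 494 nested units, whereas 35 members held several genes. The part of this in the contrast with hosts was not tested either.

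Gene families were read against the 8.40% of all coding units that were nested. The lists rest on gene symbols and are not full inventories of a family. Seminal fluid protein genes, expressed in the male accessory gland, had 14 of 47 units nested (29.8%), all 14 on 2L, 3L and 3R. They shared 9 hosts: Sfp24Ba, Sfp24Bd, Sfp24Bb and Sfp24Bc lay in a row in Drgx (29370 bp), and 3 lay in Pde1c. Acp36DE lay in the unit of Fas3 and Acp33A in that of kek2, both adhesion genes. The list's members had a median of 465 bp, from Sfp33A4 (244 bp) to Acp36DE (2980 bp).

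Cytochrome P450 genes, of hormone and toxin metabolism, had 16 of 83 units nested (19.3%) in 12 hosts. Cyp4p3, Cyp4p1 and Cyp4p2 lay in a row in hig (19465 bp). Cyp4ac1, Cyp4ac2 and Cyp4ac3 shared the unit of tkv, a receptor gene of the growth factor Dpp (52385 bp). The list ran from Cyp308a1 (1774 bp, in the unit of the neuropeptide receptor gene CCKLR-17D1) to Cyp49a1 (9543 bp, in the G protein gene Galphao).

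Odorant receptor genes had 9 of 60 units nested (15.0%), with Or94a and Or94b in Nha2 and Or59b and Or59c in the CG43795 unit. Gustatory receptor genes had 7 of 58 (12.1%), each in a host of its own: Gr39a in Mondo, Gr47a in the SLO2 unit, Gr68a in CG6024, Gr77a in CG13252, Gr94a in p53, Gr93d in CR44087 and Gr9a in CG15312. Ionotropic receptor genes had 6 of 65 (9.23%): Ir51b in row, Ir48c in the unit of ths, Ir56a in the serotonin receptor gene 5-HT1A, Ir60a in the unit of nord, Ir85a in the unit of Pif1A and Ir100a in CG42233. Odorant binding protein genes had 4 of 51 (7.84%), namely Obp59a, Obp47b, Obp51a and Obp69a.

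Cuticle protein genes had 11 of 129 units nested (8.53%), close to the share of all coding units. They lay in 6 hosts, with TwdlX, TwdlY, TwdlZ and Twdlalpha in goe on X and Cpr64Aa, Cpr64Ab and Cpr64Ac in the CG43367 unit on 3L. The list ran from Cpr67Fb (521 bp) to Twdlalpha in its joint unit with CG32568 (3460 bp). Spermatogenesis genes had 9 of 70 (12.9%), from whip (860 bp) to s-cup (5788 bp, in fdl). The units of hubl and spaw, whip, cola and swif, and boly lay side by side inside pdm3, a POU homeobox gene, on 2R. Mst77F, a sperm chromatin protein gene, lay in Pka-R1, and sa, a testis-specific TFIID subunit gene, in the unit of rgn.

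Serine protease and serpin genes had 8 of 70 units nested (11.4%): Spn27A, SPH93, Ser8, Spn42Da, Spn43Ab, Spn43Ad, Spn53F and MP1. Ion channel and gap junction channel genes had 10 of 116 (8.62%), from the innexin gene zpg (1667 bp, in CG8368) to Nmdar2, an NMDA receptor subunit gene (24185 bp, in inc), with Teh2, Teh3 and Teh4, genes of auxiliary sodium channel subunits, all in the CG18675 unit. The antimicrobial and lysozyme list had 3 of 34 (8.82%), namely Def, LysD and LysP, and the tetraspanin list 2 of 33 (6.06%), Tsp42Eo and Tsp2A. Tsp42Eo lay in its relative Tsp42Ep.

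At the low end, ribosomal protein genes had 3 of 166 units nested (1.81%): mRpL53 in AGO1, RpL41 in the unit of the sodium channel gene NaCP60E and RpS10a in the unit of tau. Homeobox genes had 0 of 99. Adhesion genes of the immunoglobulin, leucine-rich repeat, cadherin and teneurin families had 2 of 106 (1.89%), Cad88C and rst. The median unit of the whole list was 34590 bp for adhesion genes, 11247 bp for homeobox genes and 1139 bp for ribosomal protein genes, beside 2267 bp over all coding units. The part of unit length in these shares was not tested.

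The same lists looked different as hosts, where 5.10% of coding units qualified. The share of hosts climbed with unit length, and the part of length in the host shares below was not tested. Hosts made up 22.9% (X) and 25.3% (autosomes) of all units between 20000 and 50000 bp, where the median adhesion unit (34590 bp) falls. Between 10000 and 20000 bp, where the median homeobox unit (11247 bp) falls, they made up 15.8% and 13.7%. Between 5000 and 10000 bp, where the median channel unit (6708 bp) falls, they made up 5.86% and 9.29%. Adhesion genes were hosts in 25 of 106 units (23.6%), with 52 nested units, 51 of them inside the adhesion gene itself. Besides the units of kirre (9 members) and Ten-a (6), the dpr6 unit held 5 and beat-Ib, an axon guidance gene, held 4. The channel genes were hosts in 16 of 116 units (13.8%), led by the SLO2 unit with 3. Of the 24 members in these units, 21 lay inside the channel gene itself. The potassium channel genes Sh and Shab held 2 each. Homeobox genes were hosts in 7 of 99 (7.07%), pdm3 with 6 nested units first and Drgx with 4 next. Of the 16 members in these units, 14 lay inside the homeobox gene itself. Odorant receptor genes had 1 host unit of 60, which holds Or1a, but no member lay inside Or1a itself. The 5 host units of cuticle genes held 14 members, of which 3 lay inside a cuticle gene itself. The RYa-R unit, which also holds TwdlT, had 7 of the 14, and the unit of CG43367 and Cpr64Ad had 4. Cyp4g1 stood in the unit of CG32816 described above. The lysozyme genes LysB, LysC, LysE and LysS share a unit with mwh, which hosts LysD and LysP among 4 members. The other antimicrobial host unit, with Mtk, held 2, the unit of Ir47a and Ir47b is that of SLO2, and Tsp42Ep held Tsp42Eo. No member lay inside an antimicrobial, lysozyme, ionotropic receptor or cytochrome P450 gene of these units. The host units of the ribosomal protein genes mRpL17, mRpS9 and mRpS14 held 1 each. Of these 3 members, 2 lay inside the ribosomal protein gene itself. The member in the joint unit of CG32533 and mRpS14 did not lie inside mRpS14. Gustatory receptor, odorant binding protein, seminal fluid protein, spermatogenesis, and serine protease and serpin genes had no host.

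Among genes of dosage compensation and pausing, 0 of 7 units of the MSL complex, 0 of 8 of the NSL complex (which also holds MOF) and 0 of 14 of the pausing list were nested, and none of these units was a host. In lists this small, 8.40% amounts to about 1 unit or less. The sex determination list had 2 of 17 (11.8%), sc, named above, and emc, a helix-loop-helix gene without the DNA-binding domain (3L, 749400 to 753492), which lay in the hng3 unit (17810 bp).

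Other nested units gave a comparison. Units without a coding symbol were nested in 22.5% of cases (681 of 3020), with 22.2% on X and 23.6% on the autosomes. Their hosts had a median of 19420 bp, against 27780 bp for coding members. They were shorter, with a median of 671 bp against 1414 bp, and lay close to either end of the host more often. Of them, 13.7% began within 500 bp of the host's end and 12.1% ended within 500 bp of its start, against 5.98% and 5.89% of coding members. By single genes, 100 of 2174 protein-coding genes of X (4.60%) lay inside another protein-coding gene of the same strand, and 419 of 11680 autosomal ones did (3.59%). On the opposite strand, all protein-coding genes of nested units were counted, whatever the type of the host gene, giving 10.7% (232) and 7.52% (878). This count is wider than the same-strand one. It includes the 28 nested units on X and 41 on the autosomes around which no host gene was protein-coding.

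Summed over nested coding units, the span annotated on both strands was 895016 bp on X, against 1948389 bp on the autosomes. This is 15.4% of the length of the X hosts and 11.5% of that of the autosomal hosts. Plus-strand members numbered 547 and minus-strand members 542. The sample labels mention coverage summed over both strands, which was not analysed here.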

How the data were processed

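The file used is the authors' deposited table of transcription units for the whole series. It was written with rtracklayer 1.48.0, per the file headers. The submitters' processing notes list dm6 as build and the tools cutadapt 2.8, STAR 2.7.4a and SAMtools 1.20, without saying what each was used for. The sources used here do not state how genes were joined into units. The deposited values are unit bounds in bases, 1-based with both ends included. They hold no measured value of a sample, so groups were not compared.

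Hosts were found in Python 3.11.15 with pandas 2.3.3, and the search was tested on simulated units. No units of the same strand overlap, so a unit has at most 1 host. Gene types come from RefSeq's gene table for Release 6 plus ISO1 MT. A gene was matched by its symbol, then by FlyBase number, CG or CR number and synonym, always with overlap on its chromosome (17609 of 17698 genes). Autosomes are 2L, 2R, 3L, 3R and 4. No test was run, because units are not replicates.

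Members, the 20 gene lists and the alternatives were chosen with earlier results of these data known. Symbol patterns and members of 10 lists were corrected after their counts had been seen, by gene family and not by place. Named genes follow a rule unless said otherwise: the extremes of host and nested length, the 5 fullest hosts on X and on the autosomes (ties by shorter length), the starts nearest a host's bounds, units of several coding genes, nested units that are hosts, the Pcp pair, and list members. Motifs and protein lengths had been planned, and sequences were not used here.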

Additional observations from a re-analysis of the deposited data

How the results depend on the processing

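With 9 alternatives for 11 results, 80 of 99 values kept within 1.5 times the count or within the 95% binomial interval of the share or median. This interval treats units as independent, which linked units are not, so it served only as a yardstick for change. Some values could hardly move: 1 nested unit per host fixes the count of 699 hosts. The span and the bounds of the host gene rest on the same 1083 nested units. X stayed above the autosomes in nested share and in host length under every alternative run. Nested coding units per 100 kb of unit length were not among the 11 results. They were 1.07 on X and 1.18 on the autosomes in units of at most 100 kb, and 1.19 and 1.10 over all lengths. With nested units and hosts of 1 gene each there were 581 nested units in 457 hosts. The shares were 5.85% on X and 4.72% on the autosomes, over a smaller base of coding units. Median host lengths were 23617.5 bp and 12766 bp. With hosts of at most 100 kb the shares were 8.02% and 7.25% and the medians 23617.5 bp and 21169 bp. With 1 nested unit per host (699 in all) the shares were 6.09% and 5.27%. These are the 123 and 576 hosts over all coding units, with the other members counted as not nested. The medians were 23864 bp and 16593 bp. The median place from host start to the member's midpoint was 39.0% and 40.9%, against 44.9% and 44.8%. This setting takes the member nearest the start, which fixes that shift. Without the 5 fullest hosts of each, chosen after seeing the data, the shares were 8.91% on X and 7.52% on the autosomes. In these shares the dropped members were counted as not nested. The median host lengths were then 26367 bp and 23621 bp. Strict bounds, RefSeq gene types, coding hosts alone, and the span or bounds of the host gene (the latter 2 chosen after seeing the data) moved none of the 11 results. No paired analysis was possible because the table holds no value of any sample. Precision is limited by the annotation: bounds are those of gene models, not of transcription measured in these embryos.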

Other observations

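A few members of the rule are not nested coding genes. Those at iab-4 and mod(mdg4) are parts of known antisense loci. On 3R, iab-4 with mir-iab-4 (16850004 to 16856497, 6494 bp) lay inside the unit of iab-8 with mir-iab-8 (92116 bp), a pair of non-coding RNAs of the bithorax complex. Also on 3R, 2 units of mod(mdg4) segments on the plus strand (1956 bp and 4641 bp, 2 and 7 segments) lay inside the minus-strand unit of mod(mdg4) (26556 bp), a chromatin insulator gene whose mRNAs are known to be joined from both strands by trans-splicing. The pseudogene Or98P (326 bp) lay in the CG34353 unit, which also holds the nested Or98a.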
